A study of Mus musculus with 6 samples.

Results

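The protein-coding Hox genes were followed through 6 RNA-seq libraries of mouse aorta. A row of the deposited table was a member when it was typed as protein coding and its symbol was Hoxa, Hoxb, Hoxc or Hoxd followed by a number, and this took 32 of 32771 genes. Of the members, 10 lay in the Hoxa cluster on chromosome 6, 9 in Hoxb on chromosome 11, 8 in Hoxc on chromosome 15 and 5 in Hoxd on chromosome 2. By paralog group, 7 belonged to groups 1 to 3 (called anterior here), 15 to groups 4 to 8 (central) and 10 to groups 9 to 13 (posterior). All 6 libraries came from wild-type mice given AngII/BAPN, that is angiotensin II with beta-aminopropionitrile, an inhibitor of collagen and elastin crosslinking. Of these, 3 libraries (numbered 5, 7 and 39) had also received an antibody against CTHRC1, a secreted protein of activated fibroblasts, and 3 (numbered 14, 18 and 20) an isotype IgG. The labels give the tissue as aorta, name no segment, strain or age, and do not say whether the libraries are separate animals. The p-values below therefore set the difference between the groups against the spread of libraries within a group, which may be technical.

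Hox genes encode homeodomain transcription factors that set identity along the body axis. They are collinear: within a cluster, low-numbered genes at the 3' end are active up to the hindbrain and pharyngeal arches, and higher-numbered genes only further towards the tail. Vascular smooth muscle cells and fibroblasts of adult animals keep part of this embryonic pattern, so cells of the arch, thoracic and abdominal aorta express different sets of Hox genes. They bind DNA together with cofactors of the TALE homeodomain class, Pbx and Meis, and their domains are set up by retinoic acid and Cdx factors and held by Polycomb and Trithorax complexes.

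Deposited counts summed to 64556253 to 67859566 per library, of which 5883 to 19636 fell on Hox members. Antibody library 39 and IgG library 14 stood apart in markers of fast skeletal muscle, which summed to 362 and 185 CPM (counts scaled to library size) there and to 30.3 to 50.3 CPM in the other 4 libraries, and results are also given without both. Library 39 otherwise lay between libraries 5 and 7 in 52.5% of all genes tested and in 74.1% of the tested Hox members (20 of 27). Adding 1 CPM to all levels, 319 genes in IgG library 14 exceeded all of the other 5 libraries at least 4-fold, where the other libraries had 1 to 3 such genes. Of 8 smooth muscle markers, 8 were measured, with a summed level of 2378 to 5424 CPM with the antibody and 3379 to 7783 with IgG, and none was at 0 in any library. Levels of single members are given below in FPKM, which is scaled to gene length, and always in the order of antibody libraries 5, 7 and 39 and then IgG libraries 14, 18 and 20.

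The promoters of 4 members are shown because they stand for the different behaviours described below: Hoxa2 for the anterior genes, Hoxa5 and Hoxb8 for the central genes that were higher with the antibody, and Hoxa10 for the posterior genes that were high in IgG library 20. Each runs 5′ to 3′ from 250 bases before to 50 bases after the start in RefSeq (GRCm38.p6), at chr6:52164782-52165081 on the minus strand for Hoxa2, chr6:52204538-52204837 minus for Hoxa5, chr11:96281655-96281954 plus for Hoxb8 and chr6:52240805-52241104 minus for Hoxa10. Capitals mark matches on either strand to TGATNNAT (a Hox and Pbx composite), AGGTCA (a retinoic acid receptor half-site), TATAAA (the TATA box) or TTTATG (a Cdx core).
Hoxa2: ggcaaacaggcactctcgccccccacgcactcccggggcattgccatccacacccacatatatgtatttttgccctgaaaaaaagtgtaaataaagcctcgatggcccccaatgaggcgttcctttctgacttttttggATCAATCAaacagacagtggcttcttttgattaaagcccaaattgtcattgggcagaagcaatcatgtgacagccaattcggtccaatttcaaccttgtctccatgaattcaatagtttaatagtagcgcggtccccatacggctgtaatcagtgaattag
Hoxa5: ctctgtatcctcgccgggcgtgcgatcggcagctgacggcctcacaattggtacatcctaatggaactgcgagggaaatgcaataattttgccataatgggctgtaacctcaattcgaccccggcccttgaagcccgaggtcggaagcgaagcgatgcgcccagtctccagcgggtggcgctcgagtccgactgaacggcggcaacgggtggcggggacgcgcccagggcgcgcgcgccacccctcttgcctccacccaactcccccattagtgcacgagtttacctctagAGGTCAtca
Hoxb8: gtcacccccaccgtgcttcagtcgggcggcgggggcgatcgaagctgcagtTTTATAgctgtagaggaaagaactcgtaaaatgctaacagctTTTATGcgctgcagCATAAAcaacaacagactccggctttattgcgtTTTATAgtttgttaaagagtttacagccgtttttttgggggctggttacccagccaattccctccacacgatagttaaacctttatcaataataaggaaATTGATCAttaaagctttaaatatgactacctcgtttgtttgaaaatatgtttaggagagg
Hoxa10: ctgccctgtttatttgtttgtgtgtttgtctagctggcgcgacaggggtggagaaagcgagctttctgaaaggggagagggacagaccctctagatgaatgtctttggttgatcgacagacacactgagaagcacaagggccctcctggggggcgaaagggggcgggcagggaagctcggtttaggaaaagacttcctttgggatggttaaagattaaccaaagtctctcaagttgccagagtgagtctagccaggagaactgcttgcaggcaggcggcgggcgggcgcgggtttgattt
Hoxa2 held 1 match, to TGATNNAT. Hoxa5 held 1 match, to AGGTCA. Hoxb8 held 5, of which 1 was to TGATNNAT, 2 to TATAAA and 2 to TTTATG. No match overlapped another, and the Hoxa10 window shown held none of these motifs. RefSeq lists a second Hoxa10 promoter, at chr6:52234890-52235189 on the minus strand, which held 1 match, to TATAAA; the one shown lies nearest the deposited gene end. RefSeq gave promoters for 17 members in 18 entries, and among these TGATNNAT was found in 3, AGGTCA in 7, TATAAA in 3 and TTTATG in 4. Over all 32841 promoters of the same length the shares were 8.8%, 16.3%, 13.6% and 11.9%. The Hox promoters had a median of 56.5% G and C and 13.5 CG pairs, against 52.7% and 7.0 over all promoters. Within the set shown, Hoxa5 had 61.7% G and C and 29 CG pairs, and Hoxb8 had 42.3% and 13.

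On the FPKM scale, the central paralog groups took the largest part of the Hox signal in all 6 libraries. This ranking depended on scaling to gene length. On the CPM scale the anterior members took 47.8% and the posterior members 7.45% on average with IgG, so the mean anterior share was above the central one. Summed over the 15 central members, the level was 82.5, 42.1 and 58.1 FPKM with the antibody and 26.1, 15.1 and 35.0 FPKM with IgG, so every antibody library lay above every IgG library (60.9 ± 20.4 against 25.4 ± 9.98, SD, n = 3 each). The 7 anterior members summed to 21.9, 20.6 and 19.1 FPKM with the antibody and 19.2, 14.1 and 14.8 with IgG, and there the groups overlapped. The 10 posterior members summed to 5.22, 1.13 and 2.38 FPKM with the antibody and 2.46, 1.15 and 7.94 with IgG. IgG library 20 was thus highest in posterior Hox RNA and IgG library 18 lowest or next to lowest in each class. These are bulk tissues, in which fewer cells of a type and less RNA per cell cannot be told apart.

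As a share of all Hox FPKM, the central members took 75.3%, 65.9% and 73.0% with the antibody and 54.6%, 49.7% and 60.6% with IgG, and the groups did not overlap. Anterior members took 19.95%, 32.3% and 24.0% with the antibody and 40.3%, 46.5% and 25.6% with IgG, where antibody library 7 lay above IgG library 20. Posterior members took 4.76%, 1.76% and 2.99% with the antibody and 5.15%, 3.78% and 13.8% with IgG, again with overlap. The IgG group thus held both the library with the largest anterior share, 18, and the library with the largest posterior share, 20. The mean paralog group, weighted by FPKM, was 5.45, 4.57 and 5.10 with the antibody and 4.29, 4.03 and 5.51 with IgG (5.04 ± 0.44 against 4.61 ± 0.79, SD, n = 3 each). IgG library 20 had the highest value of all 6 and IgG library 18 the lowest, so the groups overlapped on this single number. Without antibody library 39 and IgG library 14 the means were 5.01 and 4.77.

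**Figure D1:**
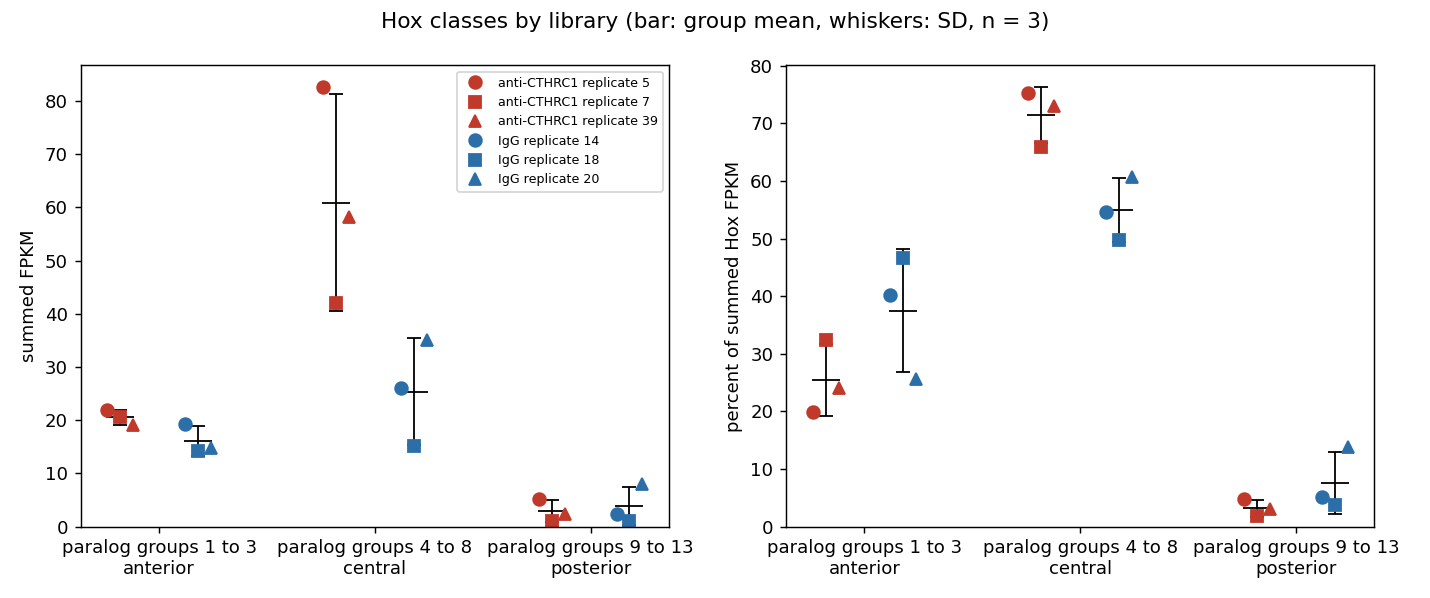
Summed FPKM (left) and percent of all Hox FPKM (right) for paralog groups 1 to 3, 4 to 8 and 9 to 13, with 1 point per library, a bar at the group mean and whiskers for the SD (n = 3 each). The 3 antibody libraries lie above the 3 IgG libraries for groups 4 to 8 on both axes, at 42.1 to 82.5 against 15.1 to 35.0 FPKM, and the groups overlap for the other classes.

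How far towards the tail each cluster was on also differed between libraries. At 1 FPKM or more, the highest-numbered Hoxa gene was Hoxa7 in every library but IgG library 20, where it was Hoxa10. In the Hoxb cluster the limit was Hoxb9 in antibody libraries 5 and 39 and in IgG library 20, Hoxb8 in antibody library 7, Hoxb7 in IgG library 14 and Hoxb4 in IgG library 18. The Hoxc cluster was the most uneven: the limit was Hoxc8 in antibody libraries 5 and 39, Hoxc6 in antibody library 7 and Hoxc10 in IgG library 20, and no Hoxc gene reached 1 FPKM in IgG libraries 14 and 18. In the Hoxd cluster the limit was Hoxd8 in all 6 libraries. At 0.5 FPKM or more, the Hoxd limit was Hoxd8 in the 3 antibody libraries and Hoxd9 in the 3 IgG libraries. At that lower level the Hoxb limit was Hoxb9 in the 3 antibody libraries and in IgG library 20 and Hoxb8 in IgG libraries 14 and 18. The Hoxc limit was then Hoxc9 in antibody library 5, Hoxc8 in antibody libraries 7 and 39 and Hoxc10 in IgG libraries 14 and 20, with no Hoxc gene in IgG library 18, and the Hoxa limits were as at 1 FPKM. The summed Hoxc level was 19.8, 6.36 and 10.3 FPKM with the antibody and 3.26, 0.60 and 8.72 FPKM with IgG, where antibody library 7 lay below IgG library 20. The most abundant Hoxa gene moved from Hoxa2 in IgG library 18 and Hoxa4 in IgG library 14 to Hoxa5 in IgG library 20 and antibody libraries 7 and 39 and to Hoxa7 in antibody library 5. No label gives the segment taken, so the aortic level sampled and the treatment cannot be told apart as a source of these differences.

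**Figure D2:**
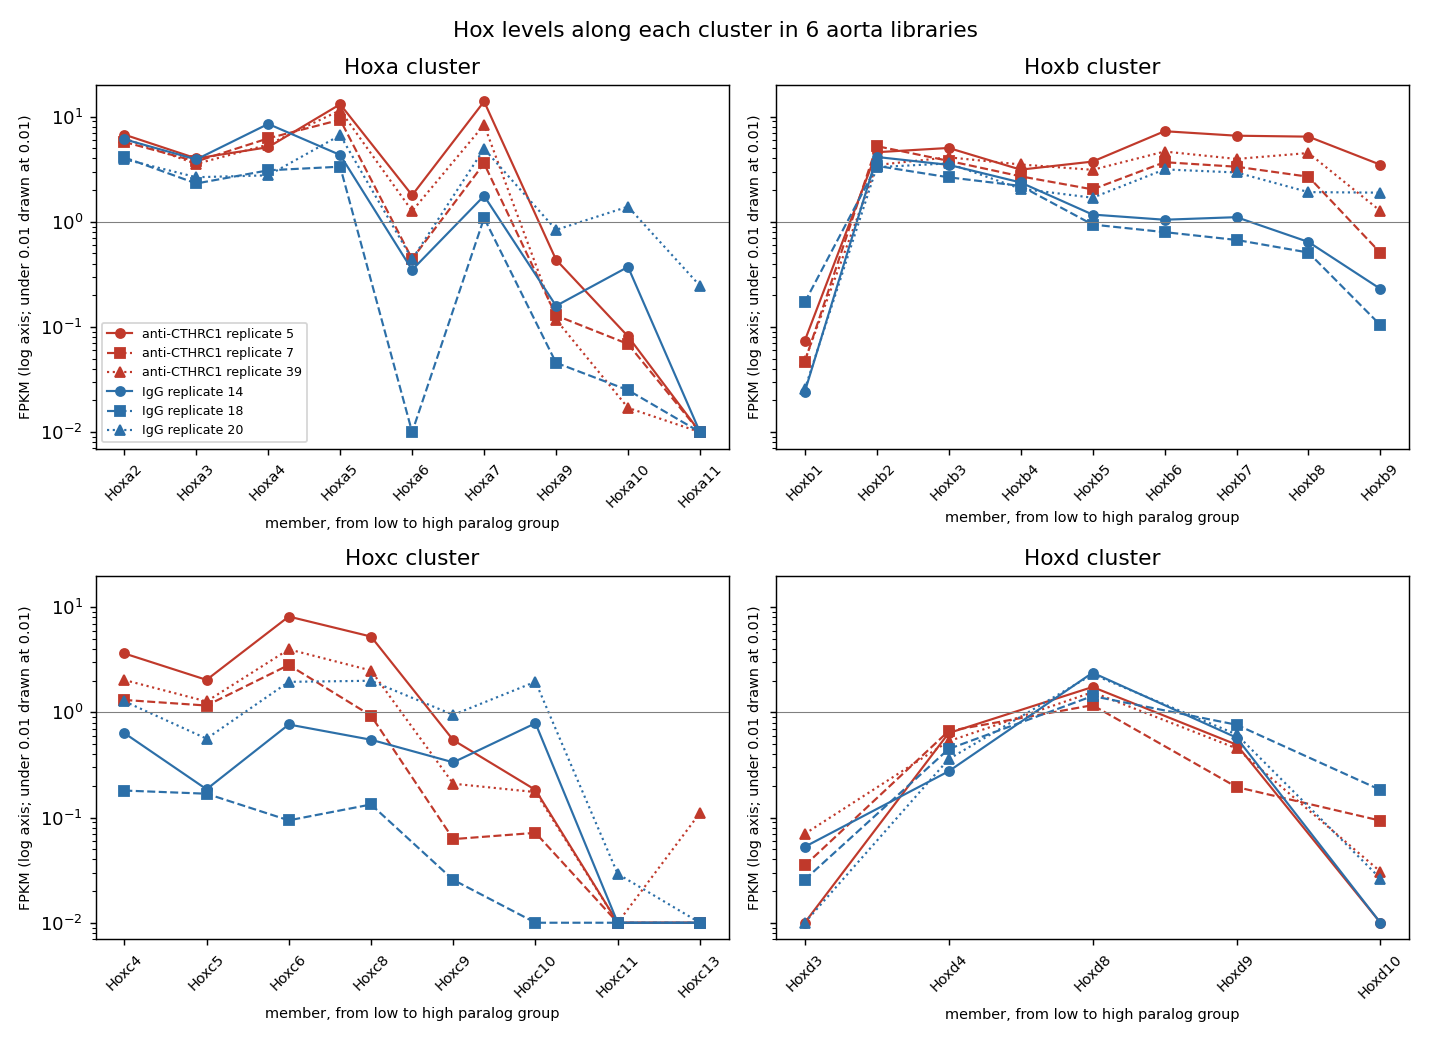
FPKM of the members, 1 left out (log axis; values under 0.01 are drawn at 0.01) along the Hoxa, Hoxb, Hoxc and Hoxd clusters from low to high paralog group, with 1 line per library in red for the antibody and blue for IgG and a grey line at 1 FPKM. The libraries run close together in Hoxa2, Hoxa3, Hoxb2 and Hoxb3 and spread in most members of groups 5 to 10, where IgG library 18 is lowest for most members and IgG library 20 is highest for Hoxa10 and Hoxc10.

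Across the 19241 genes tested, antibody against IgG, edgeR's quasi-likelihood test passed 0.317% at an adjusted p under 0.05 (0.104% higher and 0.213% lower), and among the 27 tested Hox members it passed 0. The smallest adjusted p of a member was 0.145 (edgeR), and at an unadjusted p under 0.05 it had 13 members higher and 1 lower, where 7.8% and 9.31% of all genes were. The DESeq2 Wald test passed 7.48% of 21182 genes, 2.78% higher and 4.7% lower, and among the 30 members with an adjusted p it passed 5 higher and 1 lower. The 5 were central (Hoxa5, Hoxb5, Hoxc5, Hoxb6 and Hoxb8), and the 1 was the posterior Hoxa10. On the CPM scale the groups did not overlap in 15 of the 27, of which 14 were higher with the antibody and 1 lower, against 22.0% of all genes. On the FPKM scale they did not overlap in 13, since Hoxa2 and Hoxa3 then overlapped, against 20.4% of all genes. Both counts include Hoxa6, in which the closest libraries of the groups were nearly tied. Hox members were counted among the 27 if they passed a filter on low counts, which the 15 central members all did, but 1 anterior and 4 posterior members did not.

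Medians differed between the 3 classes, a difference that was not itself tested. The median log2 fold change (edgeR, antibody minus IgG) was 0.45 for the 6 tested anterior members, 1.64 for the 15 central members (-0.39 to 2.41) and -0.70 for the 6 tested posterior members (-3.40 to 1.19). Over all tested members it was 0.56, with 21 of 27 positive, and over all tested genes -0.02, with 47.7% positive. The spread within a group was wider for Hox members than for other genes: the median SD of log2(CPM + 0.1) was 0.47 against 0.22 in the antibody group and 0.96 against 0.29 in the IgG group. It was 0.25 for anterior, 1.08 for central and 2.02 for posterior members within the IgG group. Without antibody library 39 and IgG library 14, the median of the central members was 1.42. In edgeR 0 Hox members then passed and 6 had an unadjusted p under 0.05, against 0 and 2056 of 19224 genes. DESeq2 passed only Hoxc5 of the Hox members, against 3.57% of all genes.

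**Figure D3:**
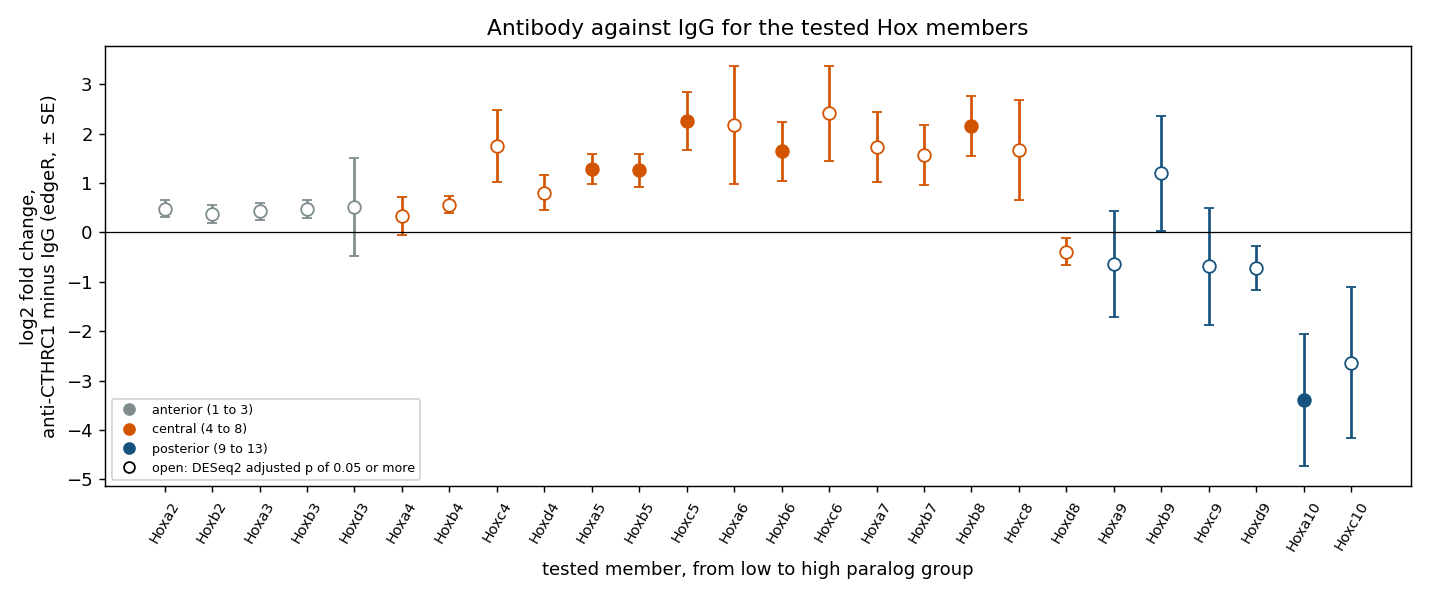
Log2 fold change of antibody against IgG from edgeR, with its standard error, for the tested members, 1 left out, from low to high paralog group, in grey for groups 1 to 3, orange for 4 to 8 and blue for 9 to 13. Filled points passed in DESeq2, which are 5 central members above 0 and Hoxa10 below it, and no member passed in edgeR.

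By the median spread within groups, the anterior members were the most even across libraries. Hoxa2, which sets the identity of the second pharyngeal arch, stood at 6.74, 5.74 and 6.19 FPKM with the antibody and 6.09, 4.09 and 3.94 with IgG. IgG library 14 lay within the antibody range on this scale, and edgeR gave a log2 fold change of 0.48 with an SE of 0.17 (adjusted p = 0.226). Hoxb2, a hindbrain gene, was at 4.58, 5.24 and 3.46 FPKM with the antibody and 4.13, 3.40 and 3.30 FPKM with IgG. Hoxa3, needed for the third pharyngeal arch from which the carotid arteries form, was at 4.001, 3.74 and 3.55 FPKM with the antibody and 3.91, 2.31 and 2.65 with IgG, so that IgG library 14 was again within the antibody range. Hoxb3 was at 5.03, 3.79 and 4.10 FPKM with the antibody and 3.48, 2.65 and 3.59 FPKM with IgG, with no overlap. Its annotated exons shared 52.9% of their bases with a gene on the opposite strand, so its level is uncertain where counting ignored strand, which is not given. The same share was 27.3% for Hoxb2 and 25.4% for Hoxa3. On its own strand Hoxa2 shared 15.0% of its exon bases with another gene, and Hoxa3 shared 8.01%. Hoxd3 had only 2 to 22 counts per library and was not even, with a log2 fold change of 0.52 (SE 0.99). It shared 62.3% of its exon bases with other genes on its own strand and is uncertain in either case.

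In paralog group 4, Hoxb4 was even across libraries, and Hoxa4 and Hoxc4 were not. Hoxa4, a gene of the neck vertebrae, was at 5.12, 6.21 and 5.42 FPKM with the antibody and 8.51, 3.08 and 2.76 FPKM with IgG. IgG library 14 was the highest of all 6 and the other two IgG libraries the lowest, and edgeR gave a log2 fold change of 0.34 with an SE of 0.39 (adjusted p = 0.706). Hoxb4, known for its role in blood stem cell expansion, was at 3.13, 2.70 and 3.50 FPKM with the antibody and 2.36, 2.19 and 2.06 with IgG. Its groups did not overlap, with a log2 fold change of 0.56 (SE 0.17) and an adjusted p of 0.192 in edgeR and 0.0785 in DESeq2. Hoxc4, the neighbour of Hoxc5, ran lower in both groups, at 3.64, 1.31 and 2.03 FPKM with the antibody and 0.64, 0.18 and 1.28 with IgG. The groups were narrowly separate, at a log2 fold change of 1.75 (SE 0.73) and an adjusted p of 0.286 in edgeR and 0.0692 in DESeq2. Among the exons of group 4, Hoxd4 shared 52.3% of its bases with a gene on its own strand and Hoxa4 shared part with a gene on the opposite strand.

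Paralog group 5 gave the clearest separation. Hoxa5 (ENSMUSG00000038253, chr6:52201754-52204587), which patterns the neck and upper thorax and is needed for the lung, was the most abundant member, at 13.1, 9.33 and 11.5 FPKM with the antibody and 4.31, 3.34 and 6.65 FPKM with IgG. All 3 antibody libraries lay above all 3 IgG libraries, with a log2 fold change of 1.28 (SE 0.30) and an adjusted p of 0.145 in edgeR and 0.00183 in DESeq2. Hoxc5 (ENSMUSG00000022485, chr15:102967443-103017429) was at 2.04, 1.16 and 1.27 FPKM with the antibody and 0.19, 0.17 and 0.56 FPKM with IgG. Its groups did not overlap either, and the log2 fold change was 2.26 (SE 0.59), with an adjusted p of 0.165 in edgeR and 0.00193 in DESeq2. The annotated exons of Hoxc5 share 5.37% of their bases with another gene on the same strand. Hoxb5 (chr11:96303336-96306121), which in the mouse acts in endothelial precursors and in the enteric nervous system, was at 3.73, 2.03 and 3.12 FPKM with the antibody and 1.17, 0.94 and 1.69 with IgG. The groups were again separate, with a log2 fold change of 1.26 (SE 0.34) and an adjusted p of 0.172 in edgeR and 0.0110 in DESeq2. Over the 6 DESeq2 fits that each left out 1 library, Hoxa5 and Hoxc5 passed in 6 and Hoxb5 in 3.

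Paralog groups 6 to 8, genes of the thoracic region, had log2 fold changes from -0.39 to 2.41. Hoxb6 (chr11:96292476-96301569) was at 7.26, 3.68 and 4.65 FPKM with the antibody and 1.05, 0.80 and 3.15 FPKM with IgG. The groups did not overlap, but IgG library 20 lay close under antibody library 7, and the log2 fold change of 1.64 (SE 0.59) had an adjusted p of 0.244 in edgeR and 0.0315 in DESeq2. Hoxc6 (chr15:102998257-103010768), the highest Hoxc member, was at 8.15, 2.82 and 3.98 FPKM with the antibody and 0.77, 0.094 and 1.95 FPKM with IgG. Its log2 fold change was the highest of the tested members, 2.41 (SE 0.96), and its adjusted p was 0.275 in edgeR and 0.186 in DESeq2. Hoxa7 (chr6:52214491-52221854) was at 13.9, 3.58 and 8.36 FPKM with the antibody and 1.76, 1.08 and 4.94 with IgG. Its exons shared 20.4% of their bases with a gene on the opposite strand. Here IgG library 20 lay above antibody library 7, and edgeR gave a log2 fold change of 1.73 with an SE of 0.70 (adjusted p = 0.281). Hoxb8 (ENSMUSG00000056648, chr11:96281905-96285315), a gene of spinal and blood cell patterning, was at 6.44, 2.68 and 4.50 FPKM with the antibody and 0.64, 0.51 and 1.91 FPKM with IgG. The groups did not overlap, with a log2 fold change of 2.15 (SE 0.61) and an adjusted p of 0.186 in edgeR and 0.00226 in DESeq2. Of the DESeq2 fits that left out 1 library, Hoxb8 passed in 4 and Hoxb6 in 1.

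The edgeR calls changed when IgG library 20 was left out, for Hox members and for all genes. Without it, edgeR passed Hoxa5 (log2 fold change 1.74, adjusted p = 0.0269), Hoxb6 (2.66, 0.0357), Hoxb8 (3.14, 0.0360) and Hoxc5 (3.18, 0.0325). These were 4 of 29 members, against 1.11% of all genes. DESeq2 then passed 12 of 29 members, against 11.3% of all genes. Leaving out any of the other 5 libraries left 0 Hox members past the threshold in edgeR. Over all genes, edgeR passed 0 without library 7, 39 or 18, 2 without library 5 and 0.96% without library 14. Hoxd8 (chr2:74704615-74707933), the highest Hoxd member, was the 1 central gene with a negative log2 fold change. It was at 1.74, 1.17 and 1.56 FPKM with the antibody and 2.38, 1.43 and 2.30 FPKM with IgG, with overlap. Its fold change on the log2 scale was -0.39 with an SE of 0.28 and did not pass in edgeR (adjusted p = 0.526). The remaining central members were Hoxd4, Hoxa6, Hoxb7 and Hoxc8. Their log2 fold changes ran from 0.81 to 2.18, and the groups overlapped in Hoxc8 only. In Hoxa6 the groups were nearly tied, at 28 counts in antibody library 7 and 26 in IgG library 20. Hoxa6 had 0 counts in IgG library 18, where a count of 0 allows up to 3 counts or 0.0452 CPM.

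The libraries kept much the same order from gene to gene within the central class. Antibody library 5 was the highest of all 6 in 11 of 15 central members and IgG library 18 the lowest in 11. Within the antibody group the order was 5 above 39 above 7 in 12 of 15, and within the IgG group it was 20 above 14 above 18 in 11. Of all tested members, 10 had the full order 5, 39, 7, 20, 14, 18 (Hoxb3, Hoxc4, Hoxa5, Hoxb5, Hoxc5, Hoxa6, Hoxb6, Hoxc6, Hoxb7 and Hoxb8), as did 0.27% of all genes tested. This order was picked after the values were seen, and genes of a cluster share their libraries and are not independent of each other, so it is given as a description. In Hoxa6, antibody library 7 and IgG library 20 were nearly tied.

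The posterior members were low and did not move as 1 class. Hoxb9, a gene of the lower thorax, had the same library order within each group as Hoxb5, Hoxb6, Hoxb7 and Hoxb8. It was at 3.48, 0.51 and 1.27 FPKM with the antibody and 0.23, 0.10 and 1.89 FPKM with IgG. Unlike in those genes the groups overlapped, as IgG library 20 lay above antibody libraries 7 and 39. The log2 fold change was 1.19 (SE 1.17, edgeR). Hoxa10 (ENSMUSG00000000938, chr6:52231197-52240795), which patterns the lumbar region and the uterus, was at 0.081, 0.069 and 0.017 FPKM with the antibody and 0.37, 0.025 and 1.39 FPKM with IgG. IgG libraries 14 and 20 were the highest and IgG library 18 lay within the antibody range. The log2 fold change was -3.40 (SE 1.34), with an adjusted p of 0.269 in edgeR and 0.0333 in DESeq2, and it passed in 2 of the 6 DESeq2 fits that left out 1 library. Hoxc10 (chr15:102966796-102971893), a gene of the lumbar region and hindlimb, was at 0.18, 0.072 and 0.17 FPKM with the antibody and 0.79, 0 and 1.96 FPKM with IgG. IgG library 18, with 0 counts, was the lowest of all 6 while the other two IgG libraries were the highest, and edgeR gave a log2 fold change of -2.64 with an SE of 1.53 (adjusted p = 0.426).

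Hoxd9 (chr2:74697727-74700208) was the 1 tested member whose groups did not overlap with the antibody lower, at 0.49, 0.20 and 0.46 FPKM with the antibody and 0.58, 0.76 and 0.62 with IgG, and edgeR gave -0.72 on the log2 scale with an SE of 0.45 (adjusted p = 0.460). Hoxa9 and Hoxc9 were highest in IgG library 20, at 0.84 and 0.95 FPKM. Their log2 fold changes of -0.64 and -0.69 turned to 1.36 and 0.81 without that library. The 5 members under the count filter were mostly posterior. Hoxa11, a gene of the limb and kidney, had 39 counts in IgG library 20 and 0 in the other 5 libraries, and Hoxc11 had 4 counts there and 0 in the others. Hoxc13, a gene of hair and nails, had 20 counts in antibody library 39 and 0 in the others. Hoxb1 and Hoxd10 had their highest counts, 28 and 24, in IgG library 18.

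No partner or regulator of the Hox proteins on the lists used here passed the test. Of all genes, 0.317% passed in edgeR and 7.48% in DESeq2, and 17.1% had an unadjusted p under 0.05 in edgeR. The groups did not overlap on the CPM scale in 22.0% of all genes. Of 9 TALE cofactors, 2 had a positive log2 fold change, the median was -0.14 and 0 passed in edgeR or DESeq2, with 1 at an unadjusted p under 0.05 in edgeR. That 1 was Meis2, at 23.1, 17.7 and 22.6 CPM with the antibody and 27.8, 31.7 and 24.8 CPM with IgG. Its groups did not overlap, and the log2 fold change was -0.41 (adjusted p = 0.251, edgeR). Pbx3 did not overlap either, at 8.92, 10.6 and 9.63 CPM with the antibody and 13.3, 11.6 and 11.3 CPM with IgG (log2 fold change -0.31, adjusted p = 0.326, edgeR). Of the 15 measured regulators and chromatin maintainers of Hox (among them Kmt2a, Ezh2, Cbx2 and the retinoic acid receptors), 14 were tested, 7 were positive, the median was 0.01 and 0 passed in either tool, with 0 at an unadjusted p under 0.05 in edgeR. Among these the Polycomb gene Bmi1 did not overlap between groups, at 32.0, 28.9 and 31.7 CPM with the antibody and 32.7, 34.3 and 32.4 CPM with IgG. The gap was narrow, and the log2 fold change was -0.10 (adjusted p = 0.634, edgeR).

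Of the other transcription factors that mark position, 0 of the 20 tested passed in edgeR. There 10 had an unadjusted p under 0.05, against 17.1% of all genes. DESeq2 passed 1 higher and 6 lower, against 2.78% and 4.7% of all genes. Meox2, a homeobox gene of mesoderm and vascular smooth muscle, was at 44.5, 37.3 and 43.0 CPM with the antibody and 26.5, 17.6 and 26.2 CPM with IgG (log2 fold change 0.83, adjusted p = 0.00299 in DESeq2 and 0.124 in edgeR). Hand2, a factor of the heart outflow tract and arch mesenchyme, was at 1.47, 3.56 and 2.55 CPM with the antibody and 17.1, 15.4 and 3.94 CPM with IgG (-2.27, 0.000782 in DESeq2). Tbx20, a cardiac T-box factor, was at 3.24, 2.11 and 2.15 CPM with the antibody and 13.4, 12.5 and 3.53 CPM with IgG (-1.97, 0.00159 in DESeq2). In both, IgG library 20 lay close to the antibody libraries and IgG libraries 14 and 18 far above them. Gata4, a cardiac zinc finger factor, was at 0.38, 0.96 and 0.92 CPM with the antibody and 10.8, 6.99 and 0.52 CPM with IgG (-3.02, 0.00505 in DESeq2), and there IgG library 20 fell within the antibody range. Isl1, a marker of outflow tract progenitors, was at 0.12, 0.19 and 0.20 CPM with the antibody and 1.77, 2.06 and 0.70 CPM with IgG (-3.15, 0.000206 in DESeq2 and 0.0905 in edgeR). Foxc2, needed for the aortic arch, was at 28.5, 27.4 and 27.8 CPM with the antibody and 35.4, 39.8 and 37.1 CPM with IgG (-0.42, 0.0273 in DESeq2). Tbx4 had 0 counts in all 3 antibody libraries and 0.26, 0.83 and 0.33 CPM with IgG. IgG library 20, with the highest central Hox level of its group, thus had the least Hand2, Tbx20, Gata4 and Isl1 RNA in its group. Foxc2 and Tbx4 differed from these, with IgG library 20 between IgG libraries 14 and 18. A link between any of these genes and the Hox level was not tested.

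**Figure D4:**
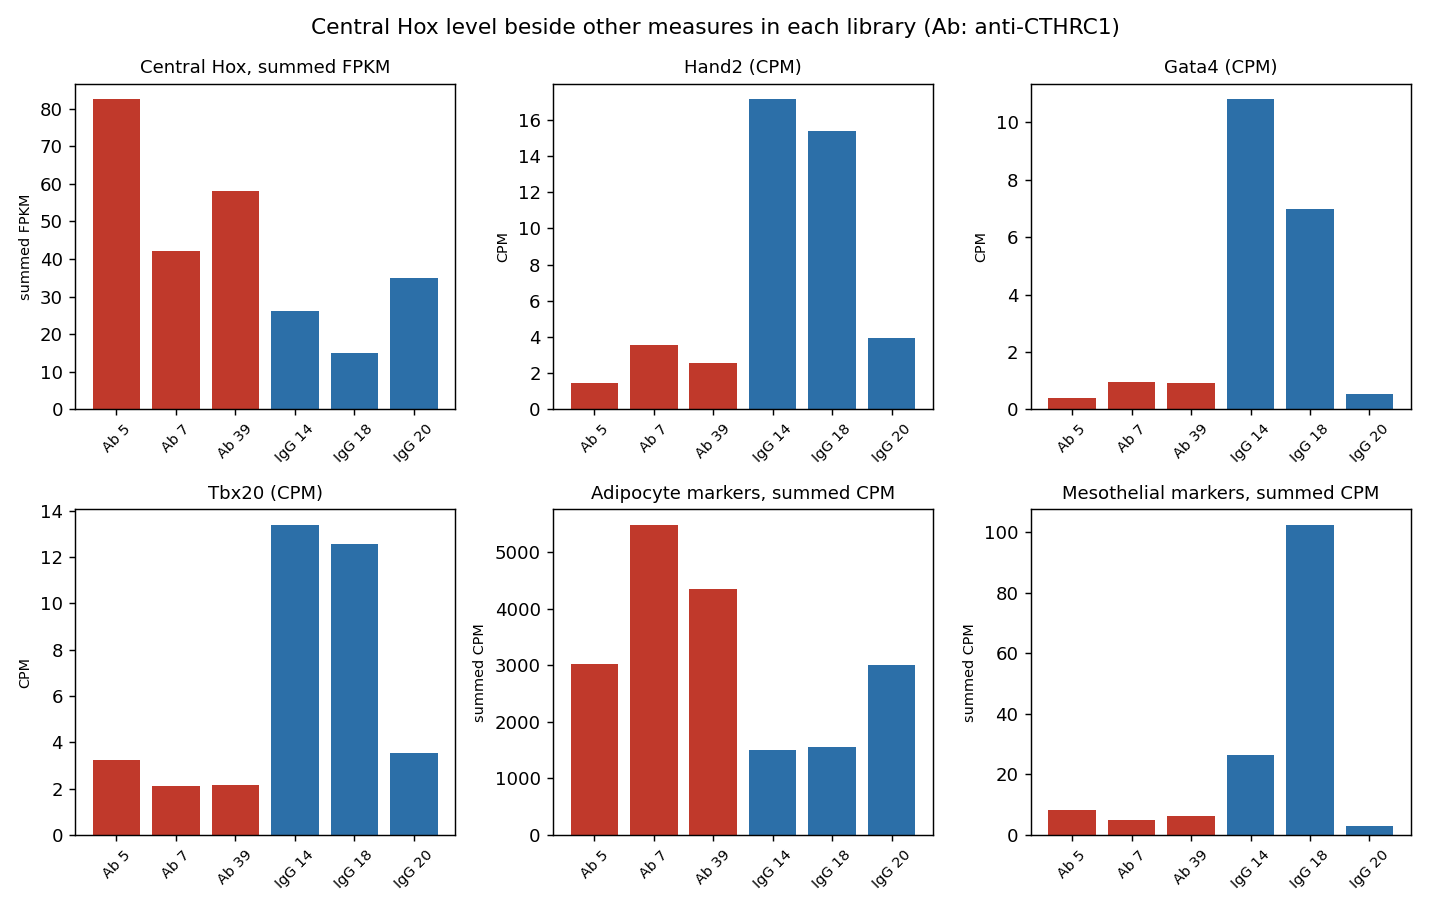
Summed FPKM of the 15 central Hox members, CPM of Hand2, Gata4 and Tbx20, and summed CPM of adipocyte and mesothelial markers, with 1 bar per library in red for the antibody (Ab) and blue for IgG, all axes from 0. IgG libraries 14 and 18 have the lowest central Hox sums, 26.1 and 15.1 FPKM, and the highest Hand2, Gata4 and Tbx20, while IgG library 20 lies near the antibody libraries in these 3 genes. Foxc2 and Tbx4, also lower in DESeq2, are not drawn. In them IgG library 20 lay between IgG libraries 14 and 18. Isl1, lower in DESeq2, and Meox2, higher in DESeq2, are not drawn either. The mesothelial sum was also highest in IgG libraries 14 and 18, at 26.6 and 102.5 CPM.

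The tissue markers below can be read beside the shares of all genes. Of these, 0.104% passed higher and 0.213% lower in edgeR, and 2.78% higher and 4.7% lower in DESeq2. In edgeR 17.1% had an unadjusted p under 0.05. Of the 8 smooth muscle markers 0 had a positive log2 fold change, and the median was -0.62. For these markers 0 passed in edgeR (2 at an unadjusted p under 0.05) and DESeq2 passed 1 lower. That 1 was Des, at 40.0, 54.4 and 57.9 CPM with the antibody and 80.8, 103.3 and 74.2 CPM with IgG (log2 fold change -0.76, adjusted p = 0.00814 in DESeq2 and 0.153 in edgeR). Markers of other tissues that an aorta sample can hold also differed between libraries. Of 6 adipocyte markers 6 were tested, 6 were positive and none was at 0, and their sum was 3030, 5488 and 4361 CPM with the antibody and 1503, 1565 and 3009 CPM with IgG. Of these, edgeR passed 1 higher (Lep) and DESeq2 5. Every antibody library lay above every IgG library in the adipocyte sum, narrowly at the closest (3030 against 3009 CPM), and also in central Hox. Within the antibody group the orders were opposite. The adipocyte sum was highest in library 7 and lowest in library 5, and central Hox the reverse. In the IgG group, library 20 was highest in both. A link between the adipocyte sum and central Hox was not tested. Of 5 macrophage markers 0 were positive, and the sum was 281 to 329.9 CPM with the antibody and 432 to 698 CPM with IgG, with none at 0. Mpeg1 passed lower in edgeR, and DESeq2 passed 3 lower (Mpeg1, Cd68 and Csf1r). Of 6 mesothelial markers 0 were positive. Their sum was 5.05 to 8.23 CPM with the antibody and 26.6, 102.5 and 2.91 CPM with IgG, and Krt19 was at 0 in part of the libraries. In edgeR 0 passed and 2 had an unadjusted p under 0.05, and DESeq2 passed Lrrn4 lower (adjusted p = 0.00632). Of 7 heart muscle markers 6 were positive and none was at 0. Their sum was 183 to 387 CPM with the antibody and 406, 97.3 and 27.3 CPM with IgG. For these, edgeR passed 3 higher (Myl7, Myl4 and Sln, genes of atrial muscle), and DESeq2 passed 4 higher, the same 3 and Nppa. Adventitial fibroblast markers (5 of 6 positive, none at 0) summed to 28280, 19670 and 22010 CPM with the antibody and 20310, 11310 and 15190 CPM with IgG. Antibody library 5 was highest and IgG library 18 lowest, as for central Hox. Unlike in central Hox, IgG library 14 lay above antibody library 7 and IgG library 20, and the groups overlapped. None of these markers passed in edgeR, where 3 had an unadjusted p under 0.05, and 2 passed higher in DESeq2. The 2 were Pi16, at 1143, 1045 and 1052 CPM with the antibody and 322, 543 and 709 CPM with IgG, and Dpt (log2 fold changes 1.04 and 0.58, adjusted p = 0.00284 and 0.00257 in DESeq2). Kidney markers (2 of 6 positive, with Umod and Cdh16 among those at 0 in part of the libraries) summed to 10.6 to 15.4 CPM with the antibody and 2.63 to 17.1 CPM with IgG. In this list edgeR and DESeq2 each passed only Aqp2, which was higher. The part of any of these tissues in the Hox values was not tested.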

How the data were processed

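Paired-end reads came from a stranded total RNA kit, per the labels' protocols. Raw counts and FPKM values, the latter scaled by gene length and library size, were deposited by the authors for each gene and library, per the file headers. HISAT2, StringTie, DESeq2 and GRCm38 are named in the submitters' processing notes; roles, versions and counting mode are not given in the sources used here. Sampling noise would be larger than the counts imply if both mates of a fragment were counted, and the floor of 3 counts covers counting error only.

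Samples were grouped by the treatment label. The count test was edgeR 4.0.16 (R 4.3.3) on all 6 libraries without covariates: genes kept by filterByExpr, TMM factors, robust quasi-likelihood fit, two-sided F-test, and Benjamini-Hochberg adjustment over 19241 genes with a threshold of 0.05. CPM values are TMM-scaled. Standard errors derive from the moderated F. The edgeR and DESeq2 steps were tested on simulated counts with 200 changed genes and the same biological spread for every gene. There edgeR recovered 3% of 2-fold and 49% of 4-fold changes, with 6 false calls. DESeq2 recovered 4% and 54%, with 12 false calls. A gene that did not pass may therefore still differ. Alternatives were DESeq2 1.42.0, DESeq2 size factors, limma 3.58.1 (voom, and log2 of FPKM plus 0.1 or 1), other filters, a threshold of 0.10, CPM or equally weighted logs for the class shares, and leaving out libraries.

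Values in every library were given for the 8 members with the highest mean FPKM, the highest of each paralog group and cluster, those past a threshold and the 5 with the smallest p; in the other lists, members past a threshold and up to 3 with the smallest p were eligible. Members outside that rule (Hoxc4 and Hoxd9) were chosen after their values were seen. Bmi1 and Skap2, from the other lists, were also outside that rule. Members and lists were chosen with earlier results of these data known. Coordinates are those of the deposited table (GRCm38), and 30 of 32 members had the same start and end in GENCODE M21. Exon overlaps come from that release. Hoxd11 was not typed as protein coding and was no member. The single values of 1 anterior member are not reported here, and it enters counts, sums and medians only.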

Additional observations from a re-analysis of the deposited data

How the results depend on the processing

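No paired analysis was possible because the groups share no replicate numbers. The median log2 fold change of the tested Hox members was positive under every alternative run (0.36 to 0.90). Of the single Hox values, 361 kept direction and side of the threshold, 10 newly passed, and 5 reversed in 3 members: Hoxa9 (0.18 with voom, 1.36 without IgG library 20), Hoxc9 (0.014 and 0.81) and Hoxd3 (-0.21 without antibody library 39). Leaving out 1 library gave -1.49 to 1.36, -1.65 to 0.81 and -0.21 to 1.10 for these 3. The count of Hox members past the threshold was 0 in edgeR and 6 with DESeq2. Leaving out 1 library it was 0 to 4 in edgeR. In DESeq2 fits added after seeing the data it was 2, 5, 2, 8, 6 and 12 without libraries 5, 7, 39, 14, 18 and 20; without antibody library 39 and IgG library 14, DESeq2 passed 1 (also added). The count over all genes was 61 in edgeR, 234 at a threshold of 0.10, 1584 with DESeq2, 95 without a filter, and 40 and 31 with limma on log2 of FPKM plus 0.1 and plus 1. Leaving out 1 library gave 0 to 227 in edgeR and, in the same order, 1949, 917, 732, 1872, 1016 and 2506 in DESeq2, and leaving out both named libraries gave 0 and 675. The mean posterior share was 3.17% with the antibody and 7.56% with IgG; leaving out 1 library gave 2.38% to 3.88% and 4.47% to 9.45%. The mean anterior share, 25.4% and 37.5%, gave 22.0% to 28.2% and 33.0% to 43.4%, and on the CPM scale it was 34.2% with the antibody and 47.8% with IgG. The mean paralog group gave 4.83 to 5.27 and 4.16 to 4.90. Weighting members equally gives a mean log2(FPKM + 0.1) in place of a share: -2.13 (antibody) and -1.83 (IgG) for posterior and 0.59 and 0.35 for anterior members. That weighting was not run for the mean paralog group. The cause of these shifts was not tested.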

Other observations

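The noncoding genes of the Hox clusters were not part of the members. Of 10 in the table, 7 were tested, 6 had a positive log2 fold change, the median was 0.05, and 0 passed in edgeR or DESeq2, with 1 at an unadjusted p under 0.05 in edgeR. That 1 was Hoxaas3, an antisense gene that overlaps Hoxa7, at 1.88, 2.05 and 1.86 CPM in antibody libraries 5, 7 and 39 and 1.35, 1.07 and 1.03 CPM in IgG libraries 14, 18 and 20 (log2 fold change 0.75, adjusted p = 0.285, edgeR). Hoxb5os, antisense to Hoxb5, was at 1.97, 0.85 and 1.37 CPM with the antibody and 0.079, 0 and 0.73 CPM with IgG, the same library order as Hoxb5. Of the 7 measured genes that flank the clusters, 2 had a positive log2 fold change, the median was -0.05 and 0 passed in either tool, with 2 at an unadjusted p under 0.05 in edgeR. Smug1, with the smallest p of these, was at 12.01, 12.34 and 13.97 CPM with the antibody and 8.60, 10.25 and 10.98 CPM with IgG. Its groups did not overlap (log2 fold change 0.36, adjusted p = 0.287, edgeR). Skap2, next to the Hoxa cluster, was at 53.0, 58.9 and 59.9 CPM with the antibody and 59.2, 58.5 and 60.3 CPM with IgG. Ttll6, near the Hoxb cluster, was at 8.64 CPM in IgG library 14, 0.77 in IgG library 18, 0 in IgG library 20 and 0.076 to 0.22 with the antibody.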
